A study of Mus musculus and Rattus norvegicus with 30 samples.

Results

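Chemokines and their receptors were read out of 2 RNA-seq count tables of rodent dorsal root ganglion (DRG), the ganglion that holds the cell bodies of the sensory neurons. The members are every gene whose symbol is Ccl, Cxcl, Ccr or Cxcr followed by a number, which gave 103 of the 93596 features, 55 of 54315 in the mouse table and 48 of 39281 in the rat table. The mouse groups were BALB/c sham (6 libraries), BALB/c after spared nerve injury (SNI, 4 libraries), B10.D2 sham (5 libraries) and B10.D2 after SNI (5 libraries). Each mouse library held the L3 and L4 DRG of 1 adult animal taken at day 28, and each group held both sexes (10 females and 10 males in all). In SNI the surgeon cuts the common peroneal and sural branches and spares the tibial branch, so these ganglia hold both injured and uninjured neurons. The rat groups were male Wistar animals with a sham operation (4 libraries) or with spinal nerve transection (SNT, 4 libraries), where the L5 spinal nerve is tied and cut, and each library pooled the L5 DRG of 3 animals taken at day 21. Library 59 of the B10.D2 sham animals and library 66 of the injured BALB/c animals carry labels but were not analysed here.

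Chemokines are small secreted proteins that guide leukocytes along a concentration gradient, and they act through G protein-coupled receptors that signal mostly through Gi. They are named by the spacing of their first cysteines (CC or CXC), and the receptors by the class of ligand they bind. In the DRG they are known as signals between injured neurons, glia and the macrophages and T cells that enter the ganglion, and several of the receptors have been found on sensory neurons themselves. These libraries are of whole ganglion, so that fewer cells of a type and less RNA per cell cannot be told apart.

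Total counts ran from 29989963 to 41881331 in the mouse libraries and from 11954612 to 17887909 in the rat libraries, and levels are given below as CPM, counts per 1000000 counts of the scaled library total. A count of 0 in 1 library allows a level of up to 0.0716 to 0.100 CPM in mouse and 0.168 to 0.251 CPM in rat (3 counts, counting error only). Of the 55 mouse members 49 had counts and 33 passed the filter on low counts and were tested, and of the 48 rat members 20 had counts and 10 were tested. Of the tested genes of an injured-neuron list 13 of 13 were higher in BALB/c SNI, 12 of 13 in B10.D2 SNI and 9 of 10 in rat SNT. Over all features 4.82%, 2.1% and 12.3% were higher, in the same order. The list was chosen with earlier results of these data known, so these counts describe the groups and do not test them. In rat Atf3, Gap43 and Stmn4 of the list were at 0 in all libraries. Some libraries were the highest or lowest of their group. BALB/c sham 55 had the highest summed macrophage markers of its group, 370 CPM against 158 to 338 CPM in the others, with sham 50 close behind. BALB/c sham 50 stood apart for summed neutrophil markers, 307 CPM against 40.6 to 159 CPM. B10.D2 SNI 76 had the lowest summed injury markers of its group, 364 CPM against 611 to 719 CPM. B10.D2 SNI 69 had the highest macrophage sum of all 20 mouse libraries (518 CPM). Rat sham 4 had 1049 CPM of injury markers and 1982 CPM of macrophage markers, against 392 to 434 CPM and 457 to 829 CPM in the other rat shams.

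Promoter sequences are shown for the pair of members with the largest called rises after SNI in mouse, Cxcl14 and Cxcl10. The windows are the 250 bases before the RefSeq start site on GRCm38.p6, Cxcl10 on the minus strand at chr5:92348890-92349139 and Cxcl14 on the minus strand at chr13:56296552-56296801, and they are written 5′ to 3′ on the strand of the gene. Capitals mark matches, found on either strand, to the interferon response element (ISRE, which is GAAA, any 2 bases and GAAA), the gamma-activated site (GAS, which is TTC, any 3 bases and GAA), the NF-kappaB site (GGG, any 3 bases and TTCC) or the AP-1 site (TGANTCA).
Cxcl10: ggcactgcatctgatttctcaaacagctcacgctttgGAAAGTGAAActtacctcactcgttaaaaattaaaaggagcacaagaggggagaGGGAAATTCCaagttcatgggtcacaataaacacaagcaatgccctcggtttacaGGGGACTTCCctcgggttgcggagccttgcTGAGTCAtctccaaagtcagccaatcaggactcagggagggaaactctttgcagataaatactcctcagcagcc
Cxcl14: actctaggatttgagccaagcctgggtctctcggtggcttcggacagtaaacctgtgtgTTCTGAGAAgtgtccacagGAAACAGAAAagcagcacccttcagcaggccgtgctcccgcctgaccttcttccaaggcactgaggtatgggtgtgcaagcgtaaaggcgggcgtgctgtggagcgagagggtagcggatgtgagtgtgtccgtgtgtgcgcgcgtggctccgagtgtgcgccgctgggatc
The Cxcl10 window held 4 matches, 1 ISRE, 2 NF-kappaB sites and 1 AP-1 site, and the Cxcl14 window held 2 matches, 1 GAS and 1 ISRE. Over all 32851 mouse windows of this length, 2.98% held the ISRE letters, 7.02% the GAS, 4.65% the NF-kappaB site and 6.75% the AP-1 site. Of the 52 mouse member symbols 36 had an entry, in 40 windows, of which 3 held an ISRE, 4 a GAS, 9 an NF-kappaB site and 5 an AP-1 site. A match is a description of the letters and not of a bound site.

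In uninjured mouse DRG the ligands ran over a wide range of levels, compared here as CPM per kb of exon over the 11 sham libraries. Ccl11 (eotaxin, a ligand of the eosinophil receptor Ccr3) stood first at 6.35 ± 1.31 CPM per kb (SD, n = 11), followed by Cxcl12, the ligand of Cxcr4, at 4.94 ± 1.004 CPM per kb. Their ranges overlapped, running from 4.28 to 8.76 and from 3.60 to 6.55 CPM per kb. Next came Ccl27a, a skin-associated ligand of Ccr10, at 2.19 ± 2.14 CPM per kb, where the wide spread was a split between the strains described below. Ccl6 (1.97 ± 0.722), Ccl12 (1.83 ± 0.767) and Cxcl16 (1.73 ± 0.473 CPM per kb) followed with ranges that overlapped one another. Ccl6 and Ccl12 are rodent ligands of monocyte receptors, and Cxcl16 is a membrane-bound ligand of Cxcr6.

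Among the receptors Cxcr4 was the highest, at 5.42 ± 1.30 CPM per kb (SD, n = 11), and its range of 3.14 to 7.65 overlapped that of Ccr2 (2.30 ± 0.937 CPM per kb, 1.005 to 3.59), the receptor that brings inflammatory monocytes into tissue. Ccr1 (0.517 ± 0.187), Ccr10 (0.430 ± 0.124) and Cxcr6 (0.358 ± 0.165 CPM per kb) made a lower group with overlapping ranges, all below the lowest Ccr2 library. Ccr1 binds inflammatory CC ligands on macrophages and T cells, and Cxcr6 marks memory T cells.

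**Figure D1:**
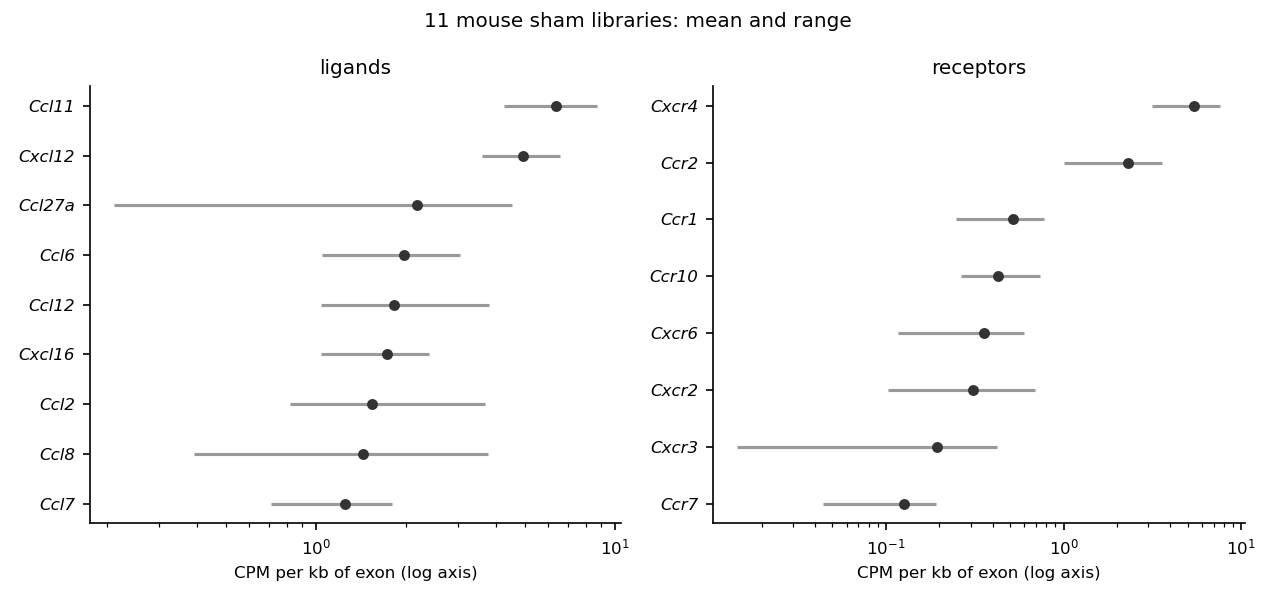
Levels of 9 ligands and 8 receptors among the highest over the 11 mouse sham libraries, in CPM per kb of exon on a log axis. Points are means and lines run from the lowest to the highest library; Ccl11 and Cxcl12 lead the ligands, Cxcr4 leads the receptors, and the line of Ccl27a spans 0.211 to 4.54 CPM per kb.

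After SNI in BALB/c mice 5 of the 33 tested members were higher and 0 lower, where 9.69% of all 24685 tested features were called in either direction (4.82% higher and 4.87% lower). They included Cxcl14, Ccr9, Cxcl16 and Ccl11. The median log2 fold change of the 33 was 0.61, against 0.0033 over all features, and 29 of the 33 were positive. In B10.D2 mice 3 of 33 were higher (Cxcl14, Cxcl10 and Ccl11) and 0 lower, where 4.58% of features were called (2.1% higher and 2.48% lower), with a member median of 0.24 against 0.0076 over all features and 26 of 33 positive. Calls are at an adjusted p under 0.05 by edgeR's quasi-likelihood test, adjusted over all features.

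**Figure D2:**
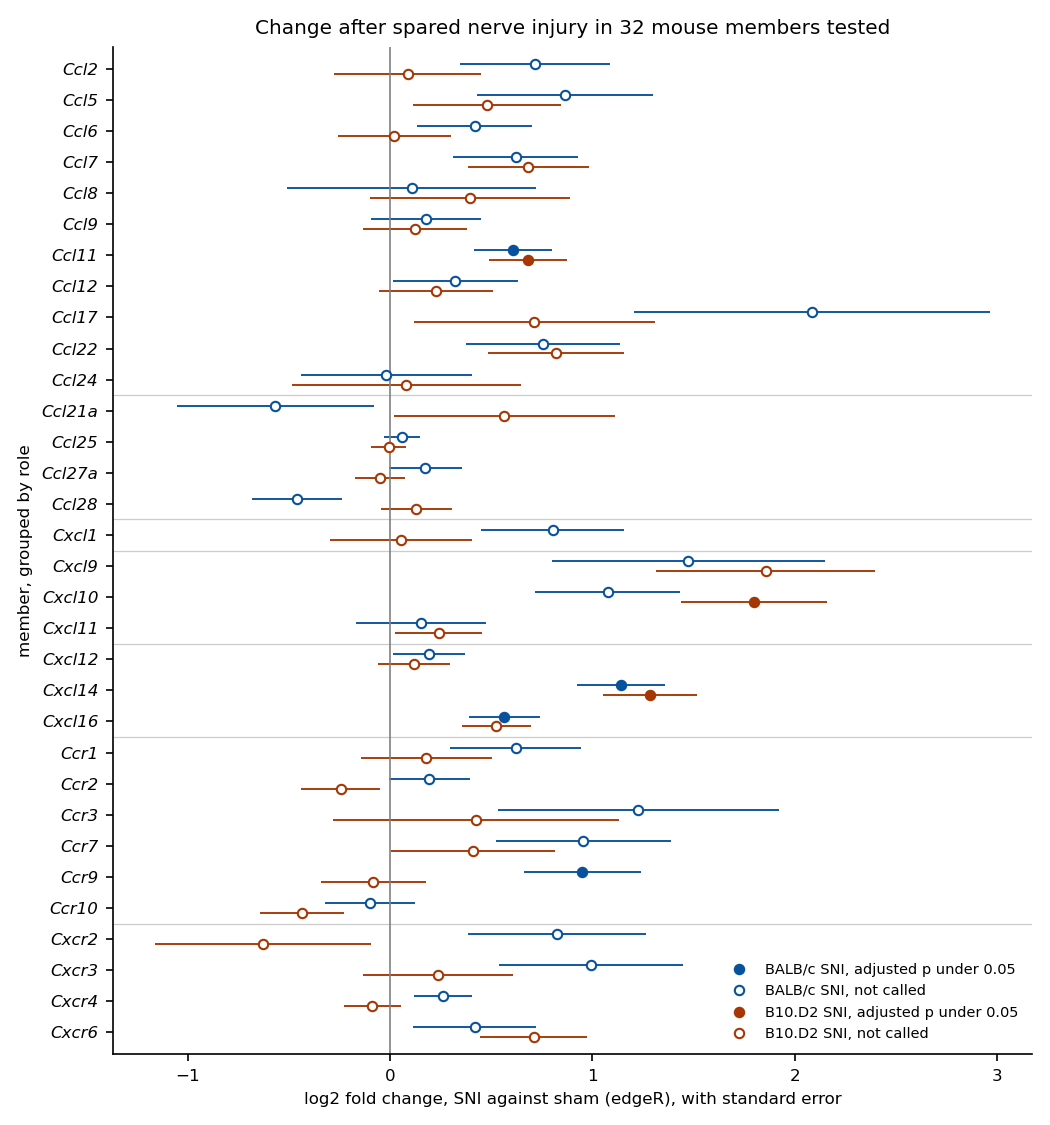
Log2 fold change after SNI against sham, with its standard error, for 32 tested mouse members in BALB/c (blue, n = 4 against 6) and B10.D2 (brown, n = 5 against 5), grouped by role. Filled points passed an adjusted p of 0.05 over all features; Cxcl14 and Ccl11 are filled in both strains.

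Cxcl14, an orphan-like CXC chemokine of epithelium and other tissues, rose in both strains. In BALB/c the 6 sham libraries held 0.677 to 1.28 CPM with a median of 0.889, and the 4 SNI libraries held 1.91, 1.80, 2.05 and 2.21 CPM. In B10.D2 the sham libraries held 0.468, 0.754, 0.869, 0.266 and 0.772 CPM, and the SNI libraries 1.81, 1.74, 1.53, 1.20 and 1.37 CPM. The groups did not overlap in either strain. Cxcl14 rose by 1.14 ± 0.22 (log2, SE) in BALB/c with an edgeR adjusted p of 0.0014, and by 1.28 ± 0.23 in B10.D2 with an edgeR adjusted p of 0.0019. It was called in all 20 fits that left out 1 library each, from 1.07 to 1.27 in BALB/c and from 1.05 to 1.47 in B10.D2. Its level was low, 10 to 79 counts per library, and its receptor remains a matter of debate.

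Cxcl10, an interferon-induced ligand of Cxcr3 that draws activated T cells, rose in B10.D2. The B10.D2 sham libraries held 0.935, 1.30, 1.98, 0.718 and 0.966 CPM of Cxcl10, and the SNI libraries 9.02, 1.94, 3.03, 2.44 and 4.14 CPM. Of the SNI libraries 4 of 5 lay above every sham library and library 76 lay just inside the sham range. The log2 fold change was 1.80 ± 0.36 (edgeR adjusted p = 0.0044). Library 69 was the highest by far, and without it the value was 1.30 ± 0.26 (edgeR adjusted p = 0.0065). In BALB/c the sham range was 0.869 to 1.97 CPM with a median of 1.17, and the SNI libraries held 2.95, 2.16, 2.54 and 2.84 CPM, above every sham library. The BALB/c log2 fold change of 1.08 ± 0.36 missed the threshold (edgeR adjusted p = 0.063), and it passed when B10.D2 SNI 69 (0.0069), B10.D2 SNI 76 (0.045) or BALB/c sham 50 (0.034) was left out, where all groups share 1 estimate of the spread. It also passed by DESeq2, with no filter on low counts, and with the strain fitted alone.

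The other Cxcr3 ligands were less even. Cxcl9, which is induced by interferon-gamma, held 0.468, 1.05, 1.66, 0.532 and 0.652 CPM in B10.D2 sham and 6.56, 1.20, 0.703, 1.85 and 5.77 CPM in B10.D2 SNI. Libraries 69 and 90 carried most of that level, and the groups overlapped. Its log2 fold change was 1.86 ± 0.54 in B10.D2, at an edgeR adjusted p of 0.054, and 1.47 ± 0.68 in BALB/c, at 0.19. The B10.D2 value passed by DESeq2, with no filter, without the sex term, and without B10.D2 SNI 76, 78 or 89, B10.D2 sham 67 or BALB/c sham 55. Without B10.D2 SNI 69 the B10.D2 value of Cxcl9 was 1.41 ± 0.54 (edgeR adjusted p = 0.21). Cxcl11 did not pass in either strain, at 0.24 ± 0.22 in B10.D2 and 0.15 ± 0.32 in BALB/c, and Cxcr3 itself had 0.24 ± 0.37 and 0.99 ± 0.45. The BALB/c value of Cxcr3 rested on single libraries, at 0.45 ± 0.50 without BALB/c SNI 65 (edgeR adjusted p = 0.68) and 1.44 ± 0.47 without BALB/c sham 55 (0.055). Cxcl9, Cxcl10 and Cxcl11 lie close together on chromosome 5.

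Other interferon-induced genes were counted beside them. Of the 15 in that list 4 were higher in B10.D2 SNI (Irf1, Irf9, Gbp2 and Gbp3) and 0 in BALB/c SNI, with median log2 fold changes of 0.44 and 0.17. The summed level of the 15 ran from 270 to 374 CPM in B10.D2 sham and from 352 to 531 CPM in B10.D2 SNI, where library 69 was the highest. The part of these genes in the Cxcl10 result was not tested. Of 13 genes of the NF-kappaB pathway 1 was higher in BALB/c SNI (Rela) and 2 in B10.D2 SNI (Rela and Il1b). Over all features 4.82% were higher in BALB/c SNI and 2.1% in B10.D2 SNI.

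Ccl11 was called in both strains but near the threshold. BALB/c sham libraries held 4.63 to 9.48 CPM of Ccl11 with a median of 7.16, and the SNI libraries 9.50, 9.75, 15.2 and 10.1 CPM. B10.D2 sham libraries held 6.08, 5.37, 7.31, 7.08 and 6.42 CPM, and the SNI libraries 15.2, 10.3, 11.9, 7.44 and 8.32 CPM. No SNI library fell into the sham range of its strain, although the gaps were small. Ccl11 rose by 0.61 ± 0.19 (log2) in BALB/c, at an edgeR adjusted p of 0.049, and by 0.68 ± 0.19 in B10.D2, at 0.047. The BALB/c call was kept only when B10.D2 SNI 69, B10.D2 SNI 89, BALB/c sham 50 or BALB/c sham 51 was the library left out, with adjusted p from 0.017 to 0.23 over the 20 fits, and the value without BALB/c SNI 65 was 0.44 ± 0.20. In B10.D2 the value without B10.D2 SNI 69 was 0.55 ± 0.19 (edgeR adjusted p = 0.14), and the call was lost in 15 of 20 fits (adjusted p 0.026 to 0.14) and kept without B10.D2 SNI 89, BALB/c SNI 65 or BALB/c sham 50, 51 or 57.

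Cxcl16 was called in BALB/c and had a like value in B10.D2. The BALB/c sham libraries held 3.14 to 7.19 CPM of Cxcl16 with a median of 4.28, where the highest was library 55, and the SNI libraries held 4.86, 7.60, 9.44 and 4.99 CPM. The B10.D2 sham libraries held 5.29, 5.34, 6.17, 7.21 and 6.64 CPM, and the SNI libraries 13.7, 7.99, 9.09, 7.01 and 9.49 CPM. The groups overlapped in both strains, with 2 of 4 SNI libraries above every sham library in BALB/c and 4 of 5 in B10.D2. Cxcl16 rose by 0.57 ± 0.17 (log2) in BALB/c at an edgeR adjusted p of 0.043, and its B10.D2 value was 0.53 ± 0.17 at 0.087, which passed by DESeq2, with no filter, and without B10.D2 SNI 76 or BALB/c sham 55. Without BALB/c sham 55 the BALB/c value was 0.71 ± 0.16 (edgeR adjusted p = 0.0082), and the BALB/c call was lost without the sex term, with the strain fitted alone and in 11 of 20 fits that left out 1 library (B10.D2 SNI 89, B10.D2 sham 58, 60 or 77, BALB/c SNI 64, 65 or 70, BALB/c sham 51, 56, 57 or 71), up to an adjusted p of 0.20 without BALB/c SNI 65. The exons of Cxcl16 overlap those of Zmynd15 on the opposite strand, and 14.2% of its 100-base windows are shared.

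Of the 11 inflammatory CC ligands tested, none besides Ccl11 passed in either strain, although 10 of 11 were positive in BALB/c and 11 of 11 in B10.D2. Ccl2, the main ligand of Ccr2, had a log2 fold change of 0.72 ± 0.37 in BALB/c, where 3 of 4 SNI libraries (1.93, 3.86 and 1.67 CPM) lay above the sham range of 0.970 to 1.65 CPM. In B10.D2 its SNI libraries (1.47 to 3.69 CPM) lay inside the sham range of 0.931 to 4.18 CPM. Ccl7, which also binds Ccr2, had 0.62 ± 0.31 and 0.68 ± 0.30 in BALB/c and B10.D2. Ccl6, Ccl8, Ccl9 and Ccl12 had values of 0.02 to 0.42 over both strains, all less than 1.5 times their standard errors. Ccl17, a ligand of the T-cell receptor Ccr4, held 0 to 3 counts in each BALB/c sham library and 2 to 11 in BALB/c SNI. The BALB/c log2 fold change of Ccl17 was 2.09 ± 0.88 at an edgeR adjusted p of 0.15, the B10.D2 value was 0.71 ± 0.60 at 0.62, and neither passed.

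The constitutive CC ligands showed no call after injury in either strain. Ccl25, the ligand of Ccr9, was the steadiest member, with 7.62 to 9.20 CPM in BALB/c sham, 7.97 to 10.3 CPM in BALB/c SNI, 8.30 to 10.2 CPM in B10.D2 sham and 8.02 to 10.6 CPM in B10.D2 SNI. Its log2 change lay between -0.12 and 0.24 in BALB/c and between -0.18 and 0.17 in B10.D2 (2 SE on each side). Ccl27a had 0.17 ± 0.18 and -0.05 ± 0.12, and Ccl28 had -0.46 ± 0.22 and 0.13 ± 0.17. Ccl21a, a ligand of Ccr7 from lymphatic endothelium, had -0.57 ± 0.49 and 0.57 ± 0.55, and 50.3% of its 100-base windows are shared with copies. Cxcl12 was the member with the most counts (1030 to 2055 per mouse library) and had 0.19 ± 0.18 and 0.12 ± 0.18. Of the 5 ELR ligands, which act on neutrophils, 1 was tested (Cxcl1), and it did not pass in either strain.

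Ccr9, known from gut-homing T cells, was called in BALB/c on low counts of 6 to 37 per BALB/c library. Its BALB/c sham libraries held 0.179 to 0.628 CPM with a median of 0.218, and the SNI libraries 0.292, 0.802, 0.959 and 0.340 CPM. The highest SNI values came from libraries 64 and 65, the female animals, and the other SNI libraries lay inside the sham range. The log2 fold change was 0.95 ± 0.29 (edgeR adjusted p = 0.040), and it was 0.78 ± 0.33 without library 65 (edgeR adjusted p = 0.17) and 1.22 ± 0.29 without BALB/c sham 55 (0.0096). The call was lost without the sex term, with the strain fitted alone and in 9 of 20 fits, without BALB/c SNI 64, 65 or 70, BALB/c sham 50, 51, 56, 57 or 71, or B10.D2 sham 67. In B10.D2 the value was -0.08 ± 0.26. Ccr9 shares 18.9% of its 100-base windows with 2 overlapping noncoding genes, 1 of them on the same strand.

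The following receptors did not pass after SNI. Ccr2 had a BALB/c value of 0.19 ± 0.20 and a B10.D2 value of -0.24 ± 0.19, and, in the same order, Cxcr4 had 0.26 ± 0.14 and -0.09 ± 0.14. Ccr1 had 0.62 ± 0.32 and 0.18 ± 0.32, and Ccr10 had -0.10 ± 0.22 and -0.43 ± 0.21. Cxcr2, a neutrophil receptor, had 0.82 ± 0.44 and -0.63 ± 0.54, with its highest level of 4.41 CPM in BALB/c SNI 49, the library that also had the highest summed neutrophil markers (491 CPM against 83.4 to 166 CPM in the other BALB/c SNI libraries). Cxcr6 had 0.42 ± 0.30 and 0.71 ± 0.27, and in B10.D2 4 of its 5 SNI libraries lay above every sham library.

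Cell type markers moved beside these members. Of 14 macrophage markers 5 were higher in BALB/c SNI (Cd68, Csf1r, Lyz2, Fcgr3 and Tyrobp) and 0 in B10.D2 SNI, with medians of 0.52 and 0.45. None of the 14 was at 0, and their sums ran from 158 to 370 CPM in BALB/c sham, 296 to 450 CPM in BALB/c SNI, 288 to 338 CPM in B10.D2 sham and 296 to 518 CPM in B10.D2 SNI. Of the lists for T cells (7 tested), neutrophils (9) and B cells (6) no gene passed after SNI in either strain. Summed T-cell markers were low, at 1.25 to 2.37 CPM in BALB/c sham and 1.39 to 4.90 CPM in BALB/c SNI, 3.01 to 4.37 CPM in B10.D2 sham and 2.46 to 5.22 CPM in B10.D2 SNI. Fibroblast markers, 1 of 6 higher in each strain (Lum), ran from 1337 to 2013 CPM in BALB/c sham and 1527 to 2650 CPM in BALB/c SNI, from 1577 to 1613 CPM in B10.D2 sham and 1425 to 2409 CPM in B10.D2 SNI, and BALB/c SNI 65, highest for Ccl11, was also highest for these. The part of these cells in the changes of the members was not tested.

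**Figure D3:**
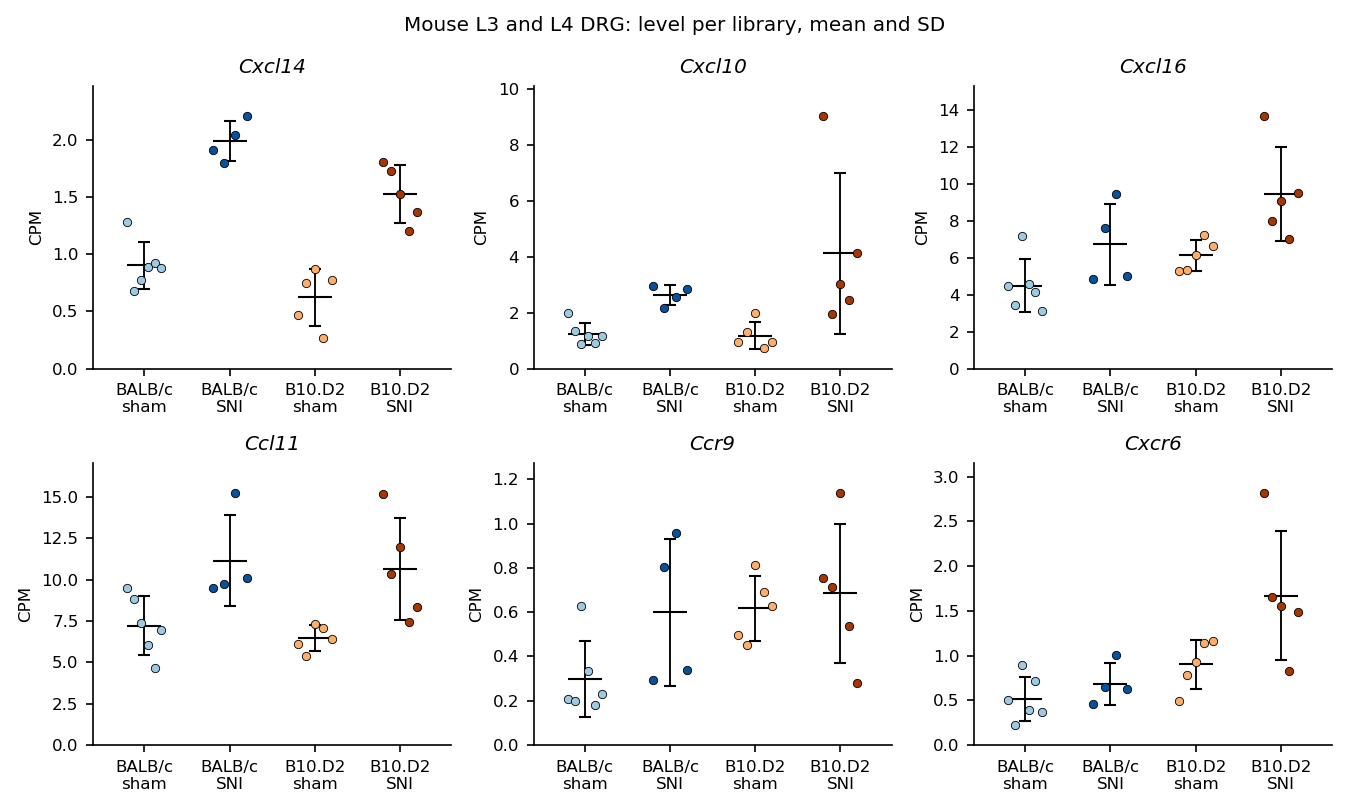
CPM of Cxcl14, Cxcl10, Cxcl16, Ccl11, Ccr9 and Cxcr6 in each mouse library (points), with the mean and SD of each group (lines). Cxcl14 separates sham from SNI in both strains, and the highest Cxcl10 point is B10.D2 SNI 69 at 9.02 CPM.

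Whether the change after SNI differed between the strains was tested as an interaction, and 0 of 33 members passed by edgeR, where 0.0243% of features did, while 3 members had an unadjusted p under 0.05 and DESeq2 also called 0. Among them were Ccr9 at -1.03 ± 0.39 and Ccl28 at 0.59 ± 0.28, given as the B10.D2 change minus the BALB/c change. For Cxcl10 the difference was 0.72 ± 0.51 and for Cxcl14 it was 0.14 ± 0.32, with an interval of -0.50 to 0.78 for Cxcl14 (2 SE on each side). All 11 receptor values but 1 were negative, that of Cxcr6 being the exception, and the median over all features was 0.00069. No receptor passed, and members measured in the same libraries are not independent, so these signs are not read as a strain difference.

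The strains were also compared in sham animals. Of the 33 tested members 13 were higher and 1 lower in B10.D2 sham than in BALB/c sham, where 21.6% of all features were called (11.5% higher). The median log2 difference of the members was 0.56, with 26 of 33 positive, against -0.0063 over all features. By role the calls fell on 6 of 11 receptors and 8 of 22 ligands.

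The Ccr10 ligands Ccl27a and Ccl28 were the constitutive CC ligands called, both far above the spread. Ccl27a held 0.502 to 1.13 CPM in BALB/c sham with a median of 0.776, and 10.8, 10.7, 9.94, 10.3 and 10.7 CPM in B10.D2 sham. After SNI the libraries held 1.04, 0.727, 0.907 and 0.879 CPM in BALB/c and 11.3, 10.7, 10.2, 10.1 and 8.09 CPM in B10.D2, so that the strains were apart in every one of the 20 libraries. The log2 difference in sham was 3.74 ± 0.14 (edgeR adjusted p = 1.35e-14). Ccl27a lies on chr4:41769467-41774247 (minus strand, GENCODE M21 on mm10) and shares 26.5% of its 100-base windows with 5 copies, which held at most 13 counts in any library. Ccl28, a mucosal ligand, held 0.628 to 1.13 CPM in BALB/c sham and 2.87, 2.68, 3.40, 2.05 and 2.46 CPM in B10.D2 sham, with a log2 difference of 1.60 ± 0.18 (edgeR adjusted p = 7.92e-07). Their receptor Ccr10 held 0.459 to 0.777 CPM in BALB/c sham and 0.694 to 1.28 CPM in B10.D2 sham. Its log2 difference of 0.46 ± 0.20 did not pass (edgeR adjusted p = 0.11), which does not show equal levels.

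Cxcl11, the third ligand of Cxcr3, held 0.171 to 0.401 CPM in BALB/c sham with a median of 0.245 and 0.994, 1.24, 1.22, 1.68 and 1.21 CPM in B10.D2 sham. Again no library overlapped, and the log2 difference was 2.31 ± 0.25 (edgeR adjusted p = 3.54e-07). Cxcl11 is annotated in mouse as a polymorphic pseudogene, meaning that it is intact in some strains only, and 39.1% of its 100-base windows are shared with Gm2673 on the opposite strand. Its receptor Cxcr3 held 0.0251 to 0.459 CPM in BALB/c sham and 0.5262, 0.362, 0.734, 0.506 and 0.434 CPM in B10.D2 sham, a difference of 1.53 ± 0.41 (edgeR adjusted p = 0.010), or 1.95 ± 0.43 without BALB/c sham 55 (0.0021). Cxcl9 and Cxcl10 did not pass between the shams, where Cxcl9 had 1.52 ± 0.64 (edgeR adjusted p = 0.10), or 2.05 ± 0.70 without BALB/c sham 55 (edgeR adjusted p = 0.042), and also passed with no filter and with the shams fitted alone.

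Receptors of monocytes and T cells were also higher in B10.D2 sham. Ccr2 held 6.79 to 19.8 CPM in BALB/c sham with a median of 9.39, and 21.8, 18.2, 21.6, 19.2 and 24.3 CPM in B10.D2 sham, where the overlap was BALB/c library 55 alone. The log2 difference was 1.01 ± 0.19 (edgeR adjusted p = 0.00032), and 1.20 ± 0.16 without library 55 (edgeR adjusted p = 7.8e-06). Cxcr4 held 5.68 to 8.94 CPM and 10.4, 13.3, 13.8, 11.5 and 9.61 CPM, with no overlap and a difference of 0.53 ± 0.13 (edgeR adjusted p = 0.0055). Ccr9 differed by 1.16 ± 0.27 and Cxcr6 by 0.91 ± 0.28, or by 1.41 ± 0.27 and 1.06 ± 0.29 without BALB/c sham 55. The Ccr9 and Cxcr6 calls were lost without the sex term, and Cxcr6 also without B10.D2 sham 88, BALB/c sham 51 or BALB/c sham 56 (edgeR adjusted p up to 0.090).

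Inducible ligands differed between the shams as well. Ccl12 differed by 0.87 ± 0.28, Ccl9 by 0.77 ± 0.25 and Cxcl16 by 0.51 ± 0.17, each higher in B10.D2. The Cxcl16 call was lost without the sex term and the Ccl9 call with the shams fitted alone. Leaving out 1 library ended the Ccl12 call in 4 of 20 fits (B10.D2 sham 58, BALB/c sham 56, 57 or 71), the Ccl9 call in 6 (B10.D2 sham 58 or 88, BALB/c sham 51, 56, 57 or 71) and the Cxcl16 call in 5 (B10.D2 sham 88, BALB/c sham 51, 56, 57 or 71). Ccl17 differed by 2.33 ± 0.82 (edgeR adjusted p = 0.047), on 0 to 3 counts per BALB/c sham library against 1 to 16 in B10.D2, and that call was kept only without B10.D2 SNI 69 or 76, B10.D2 sham 58 or 88, BALB/c SNI 49, 65 or 70 or BALB/c sham 51. Ccl24, an eosinophil-attracting ligand like Ccl11, was the 1 member called lower in B10.D2, with 0.326 to 0.869 CPM in BALB/c sham and 0.322, 0, 0.109, 0.1597 and 0.338 CPM in B10.D2 sham. Its log2 difference was -1.64 ± 0.47 (edgeR adjusted p = 0.014), and the groups met only at the edge. Ccl21a had 0.3995 to 1.70 CPM in BALB/c sham and 0.263 to 0.555 CPM in B10.D2 sham, with a log2 difference of -1.36 ± 0.50 (edgeR adjusted p = 0.056). It passed as lower by DESeq2 (0.036), with no filter (0.014), with the shams fitted alone (0.023) and without B10.D2 SNI 76 or 90, B10.D2 sham 88 or BALB/c sham 56 or 71. Ccl2 (0.86 ± 0.35) and Ccl8 (1.34 ± 0.53) did not pass but did with no filter, Ccl2 also without B10.D2 sham 77 and Ccl8 also without B10.D2 sham 60 or BALB/c sham 55.

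**Figure D4:**
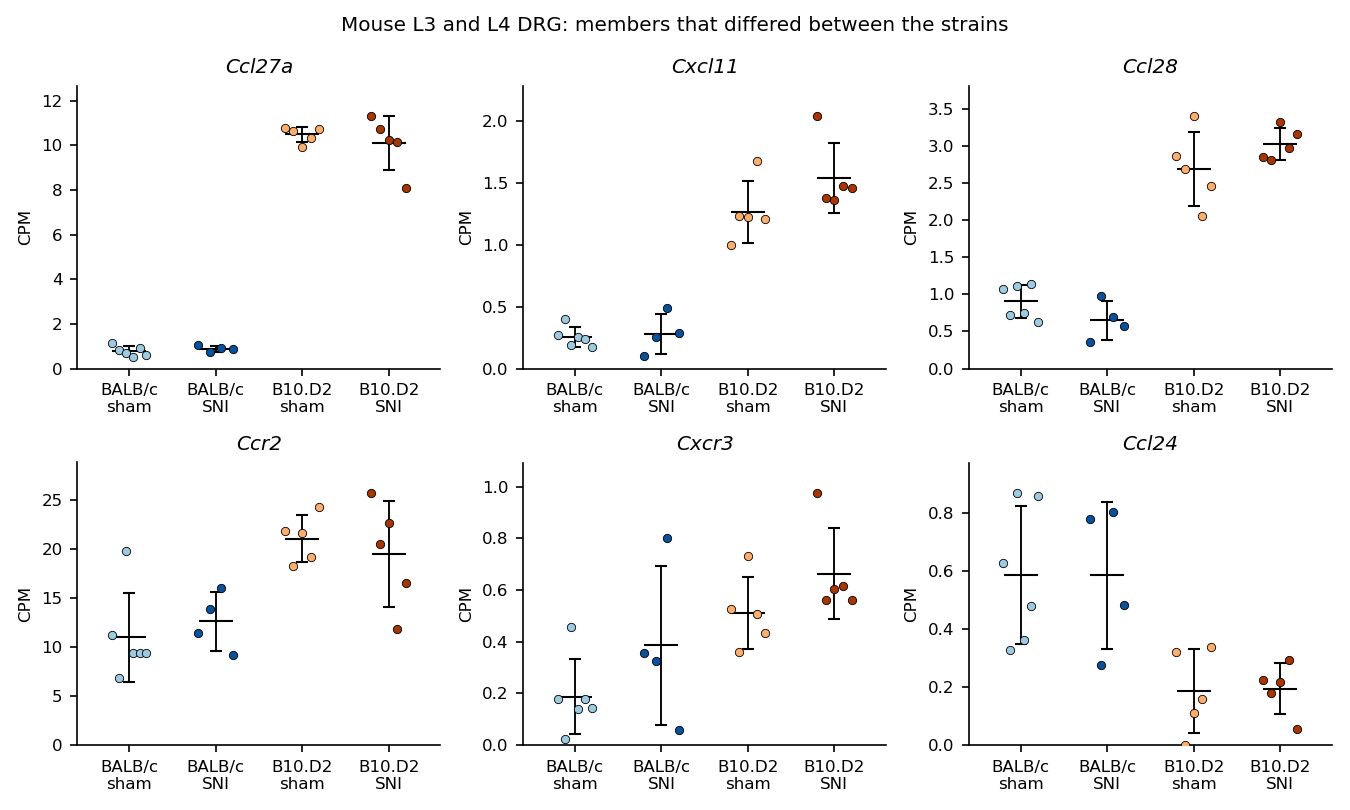
CPM of Ccl27a, Cxcl11, Ccl28, Ccr2, Cxcr3 and Ccl24 in each mouse library (points), with the mean and SD of each group (lines). Ccl27a, Cxcl11 and Ccl28 are apart between the strains in sham, and the lone high BALB/c sham point of Ccr2 is library 55 at 19.8 CPM.

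The reads of both strains were counted on mm10, a genome assembled from C57BL/6J mice, and the part of sequence differences between the strains in these values was not tested. Of the 15 interferon-induced genes 4 were higher in B10.D2 sham (Irf9, Ifit3, Mx1 and Oasl2). Immune cell markers differed between the sham groups too. Of 14 macrophage markers 7 were higher in B10.D2 sham, and of 7 tested T-cell markers 5 were higher (Cd3e, Cd3g, Cd4, Cd8a and Cd2), with sums of 3.01 to 4.37 CPM against 1.25 to 2.37 CPM in BALB/c. Of 9 neutrophil markers 5 were lower in B10.D2 (Ly6g, Mpo, Ngp, Camp and Ltf), with sums of 20.3 to 74.0 CPM against 40.6 to 307 CPM. No B-cell marker of 6 passed, nor did any of 3 erythrocyte markers. The part of these cells in the strain differences of the receptors was not tested.

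Sex was a term of the mouse model. Of the 33 members 1 was higher in females, Ccr9, where 0.243% of features were called. The 10 male libraries held 0.201 to 0.628 CPM of Ccr9 with a mean of 0.366 ± 0.151 (SD), and the 10 female libraries 0.179 to 1.14 CPM with a mean of 0.702 ± 0.278. Of the females 7 lay above every male and 1 below every male. The log2 difference was 0.95 ± 0.20 (edgeR adjusted p = 0.045), and the call held only when B10.D2 sham 77, B10.D2 sham 88, BALB/c sham 56 or BALB/c sham 57 was the library left out.

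In rat the table limits what can be read. Of the 48 rat members 28 were listed at 0 in all 8 libraries, and by the chromosome of the mouse gene of the same name they were 13 of 13 on chromosome 11, 9 of 9 on chromosome 5 and 3 of 3 on chromosome 8, but 0 of 9 on chromosome 9. Genes commonly expressed in neurons or glia, such as Tubb3, Rac1 and Mbp, were also listed at 0. For 11 of the 28 (Ccl2, Ccl6, Ccl7, Ccl9, Ccl11, Ccl12, Ccl25, Cxcl10, Cxcl11, Cxcl16 and Cxcr4) the mouse gene of that name had at least 1 CPM in a sham group. Cxcl14, which rose in both mouse strains, is among those listed at 0 in rat, so no rat value stands beside it.

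After SNT 2 of the 10 tested rat members were higher and 1 lower, where 27.4% of 13690 features were called (12.3% higher and 15.1% lower), so that the share of calls among the members was close to that of all features. The member median was 0.48 against 0.0027 over all features. Cxcr6 held 0.166, 0.366, 0.784 and 0.586 CPM in sham and 1.71, 1.52, 1.89 and 1.70 CPM after SNT, with no overlap, and its log2 fold change was 1.81 ± 0.35 (edgeR adjusted p = 0.012). Without rat sham 4 the value of Cxcr6 was 1.93 ± 0.40 (edgeR adjusted p = 0.0068). Its level was low, at 143 counts over all 8 rat libraries. It was not tested under the filter of at least 10 counts in every library.

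Ccl27, the rat counterpart of Ccl27a, fell. It held 12.7, 12.1, 12.0 and 11.1 CPM in sham and 8.54, 6.53, 6.45 and 9.24 CPM after SNT, with no overlap and a log2 fold change of -0.64 ± 0.16 (edgeR adjusted p = 0.019). The call was lost without rat SNT 2 (0.062), rat SNT 3 (0.059), rat sham 1 (0.052) or rat sham 3 (0.054). The mouse gene did not pass in either strain after SNI, and the surgeries, ganglia and times differ.

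Cxcr3 held 0.83, 0.488, 0.784 and 1.82 CPM in rat sham and 1.77, 2.45, 2.83 and 1.38 CPM after SNT. The overlap came from rat sham 4, and the log2 fold change of 1.10 ± 0.40 (edgeR adjusted p = 0.063) became 1.62 ± 0.35 without that library (edgeR adjusted p = 0.0084). With all libraries it passed by DESeq2 (1.11, DESeq2 adjusted p = 0.039) but not by edgeR. Cxcl12 held 22.6, 33.2, 21.3 and 25.5 CPM in sham and 34.5, 35.5, 29.6 and 34.9 CPM after SNT, with a log2 fold change of 0.39 ± 0.15 (edgeR adjusted p = 0.076) that passed without rat sham 2 (0.56, edgeR adjusted p = 0.033). Ccr1 (0.69 ± 0.34), Ccl19 (0.15 ± 0.30) and Ccl21 (-0.39 ± 0.42) did not pass, nor did Cxcr2 and Cxcr5, and all 6 receptor values were positive.

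**Figure D5:**
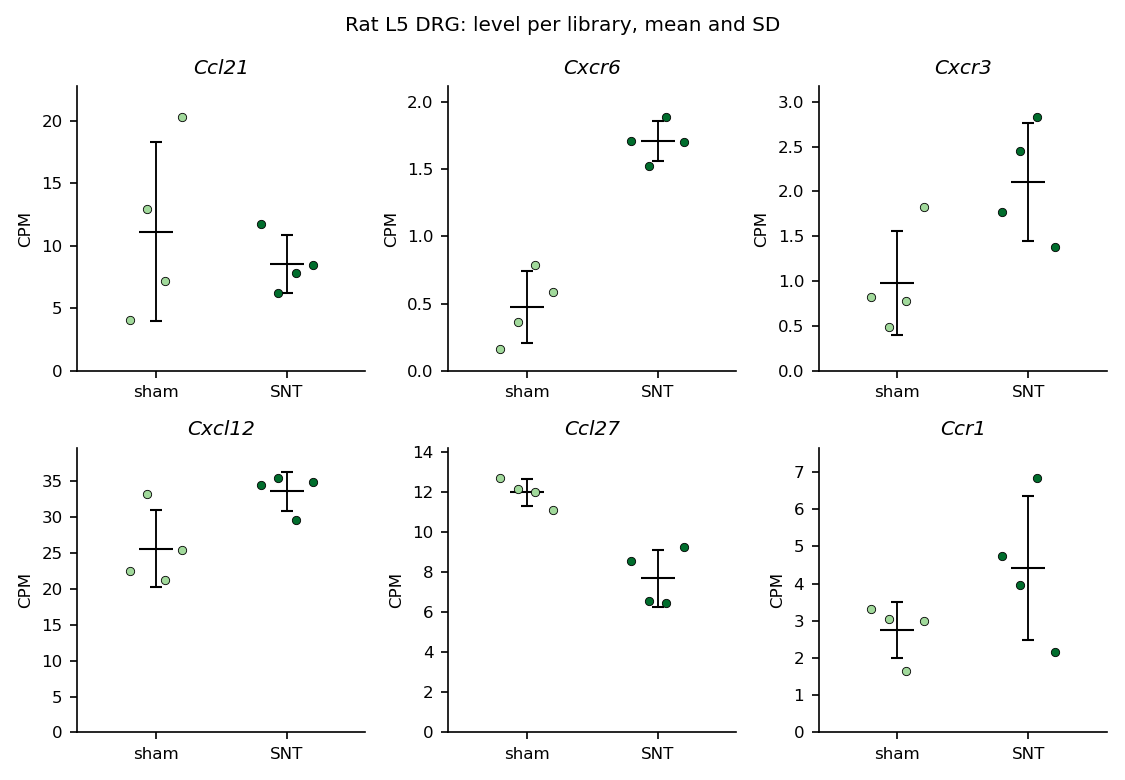
CPM of Ccl21, Cxcr6, Cxcr3, Cxcl12, Ccl27 and Ccr1 in each rat library (points; sham n = 4, SNT n = 4), with the mean and SD of each group (lines). Cxcr6 lies higher and Ccl27 lower after SNT with no overlap, and the high sham point of Cxcr3 is rat sham 4 at 1.82 CPM.

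Markers moved in rat as well. Of 5 tested T-cell markers 3 were higher (Cd3e, Cd4 and Cd2), and the T-cell sum ran from 34.3 to 87.9 CPM in sham and 102 to 156 CPM after SNT. None of 8 tested macrophage markers passed, with a median log2 fold change of 1.06 and sums of 457 to 1982 CPM in sham and 1697 to 2489 CPM after SNT, and Cd68, Aif1, Csf1r, Mrc1 and Ptprc were listed at 0. Of 23 tested genes of chemokine receptor signalling 7 were higher (Gnai3, Arrb1, Prex1, Rac2, Fermt3, Lyn and Was), of 9 NF-kappaB genes 6, and of 11 interferon-induced genes 4. Over all features tested in rat 12.3% were higher. None of 4 neutrophil markers passed, and 1 of 3 B-cell markers was higher (Pax5). The part of these cells in the rise of Cxcr6 was not tested.

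Relatives that the naming rule leaves out were read beside the members. Cx3cr1, the fractalkine receptor of macrophages and microglia, was higher in BALB/c SNI (0.97 ± 0.20, edgeR adjusted p = 0.0031) and in rat SNT (1.35 ± 0.24, edgeR adjusted p = 0.011), and had 0.42 ± 0.20 in B10.D2 SNI (edgeR adjusted p = 0.29). Its ligand Cx3cl1 had 0.11 ± 0.14 after BALB/c SNI and 0.10 ± 0.14 after B10.D2 SNI. Between the shams 2 of 12 relatives tested were higher in B10.D2 and 3 lower, where 21.6% of all features were called. These were Cx3cr1, Xcr1, Ackr2, Ccrl2 and Rarres2. Of these the scavenger receptor Ackr2 was lower in B10.D2 sham (-1.57 ± 0.30, edgeR adjusted p = 0.00048). After injury 2 of 12 relatives tested were higher in BALB/c SNI, 0 in B10.D2 SNI and 3 of 6 in rat SNT. Over all features 4.82%, 2.1% and 12.3% were higher, in the same order. Of 35 genes of receptor signalling in mouse 4 were higher and 1 lower in BALB/c SNI. In B10.D2 SNI 0 were higher and 1 lower (Gnai1). Their medians were 0.10 and 0.06. Over all features 9.69% were called in BALB/c SNI and 4.58% in B10.D2 SNI, so these counts are not read as a change of the pathway.

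Markers of resident cells were counted too. Of 14 sensory neuron markers 1 was higher and 5 lower in BALB/c SNI, and 5 were lower in B10.D2 SNI, while in rat 4 of 7 were lower. Of 6 satellite glia markers 1 (Cdh19) was higher in each mouse strain, and of 8 Schwann cell markers 2 in BALB/c and 0 in B10.D2. In rat 1 of 2 satellite glia markers was lower, 2 of 3 Schwann cell, 2 of 4 fibroblast and the 1 tested endothelial marker were higher, and the 1 tested erythrocyte marker was lower. Of 6 endothelial markers 1 was higher in BALB/c SNI (Cldn5) and 0 in B10.D2 SNI, and 0 of 3 erythrocyte markers passed in either strain.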

How the data were processed

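The deposited tables hold raw counts per gene, made by the authors with STAR, SAMtools and HTSeq on GRCm38 (mm10) and Rnor_6.0 (rn6), from ribosome-depleted (mouse) and poly-A (rat) stranded libraries. The authors' result tables hold DESeq2 mean normalised signal, log2 fold changes with standard errors, a Wald score and p-values. None of those values was used, and only identifiers and symbols were read from them. Members and lists were chosen with earlier results of these data known. Mouse libraries are separate animals and rat libraries are pools of 3.

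Counts were fitted over all features with edgeR 4.0.16 (R 4.3.3; TMM, filterByExpr, quasi-likelihood F test, two-sided, Benjamini-Hochberg over all features tested), as sex + strain × condition in mouse and condition in rat. CPM are counts over the TMM-scaled library total, and ± after a log2 value is the standard error. In simulated data for BALB/c SNI (24685 features) edgeR recovered 96% of 50 features raised 2-fold, 72% of 50 raised 1.5-fold and 62% of 50 lowered to 0.5-fold, and for rat SNT (13690 features) 72%, 14% and 28%. False calls there were 7.3% of edgeR calls and 11.3% of DESeq2 calls for BALB/c SNI, and 6.25% and 25.9% for rat SNT. The simulated data held far fewer changed features than the data, with 178 and 112 edgeR calls against 2392 and 3753. The shares of recovered and false calls therefore do not carry over to the data. A pass by DESeq2 alone is not counted as a call. Alternatives were DESeq2 1.42.0, RLE factors, other filters, no sex term, strains or shams fitted alone and each library left out. A rat block on the number shared in the titles was also fitted. Genes were named if called in any comparison, at 1 CPM or more in any group, or among the 6 highest ligands or receptors per kb in mouse sham. Positions and exon lengths are from GENCODE M21 and promoters from RefSeq. No protein sequence was used here. Values of 1 member are not reported here.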

Additional observations from a re-analysis of the deposited data

Results flagged for a closer look

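Within groups of 4 to 6 libraries, 128 group values of the named members were checked for a library far from the rest by Dixon's gap ratio, and 15 passed the 95% critical value. Chance flags about 1 in 20 groups, and members measured in the same library are not independent. BALB/c sham 55 held the highest level of its group for 6 members: Ccl8 at 0.990 CPM, Ccr2 at 19.8 CPM, Ccr9 at 0.628 CPM, Cxcl16 at 7.19 CPM, Cxcl9 at 0.748 CPM and Cxcr3 at 0.459 CPM. B10.D2 SNI 69 held the highest level for Cxcl11 at 2.04 CPM, Cxcr3 at 0.977 CPM and Cxcr4 at 13.1 CPM. B10.D2 sham 58 held the highest Ccl12 at 2.05 CPM and the highest Cxcr2 at 1.43 CPM. Single libraries stood apart for Ccl11 (BALB/c SNI 65, 15.2 CPM, the highest), Cxcr2 (BALB/c SNI 49, 4.41 CPM, the highest), Cxcr4 (BALB/c sham 71, 5.68 CPM, the lowest) and, in rat, Cxcl12 (SNT 3, 29.6 CPM, the lowest).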

How the results depend on the processing

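Alternatives for single members were computed where the unadjusted p was under 0.05, and none of those values changed direction. Counts of members called moved by over 1.5 times as follows. In B10.D2 SNI (3 called) DESeq2 and the fit with no filter beyond 1 count each called 5, adding Cxcl9 and Cxcl16. In BALB/c SNI (5 called) the fits without a sex term and of the strain alone each called 3, with Cxcl14 in both, Ccl11 without the sex term and Cxcl10 in the strain alone. Ccl11 in BALB/c was also lost with RLE factors, and 0 interaction calls arose under any alternative. Between the strains in sham (14 called) the filter of at least 10 counts in every library called 8, with 18 members tested. For sex (1 called) DESeq2 and no filter each called 2, adding Cxcl16, and the filter of 10 counts called 0, since Ccr9 was not tested. In rat (3 called) no filter called 5, adding Ccr4 and Ccr8, which were chosen after their values were seen. DESeq2 called 4 in rat, adding Cxcr3, which is within 1.5 times.

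With 1 library left out the counts ran from 2 to 6 in BALB/c SNI (2 without BALB/c SNI 64, 65 or 70 or BALB/c sham 56, 57 or 71, and 3 without BALB/c sham 51 or B10.D2 sham 58, 60, 67 or 77), 2 to 4 in B10.D2 SNI, 10 to 16 between the strains, 0 to 1 for sex, 2 to 4 in rat and 0 to 0 for the interaction. Without rat sham 4 and rat SNT 1 together 4 rat members were called, with Cxcr3 added. Rat library titles share a number across groups, read here as a run number although the titles do not say so. The fit with a replicate block on it called 3 members. The deviations of same-numbered rat libraries correlated at 0.053, -0.226, -0.080 and -0.066. Pairs with different numbers ran from -0.460 to 0.411, so these values cannot show whether the number marks a shared run. In mouse no paired analysis was possible, because no number is shared between groups. Depth limits the low members: Ccl17, Ccr9, Cxcr3 and Ccl24, and Cxcr6 in rat, rest on under 50 counts per library.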
